A study of Rattus norvegicus with 20 samples.

Results

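The spinal cord caudal to a cervical hemicontusion was compared with the cord rostral to it, block against block within each of 4 rats. The members were the 4 caudal libraries (region 5) and the 4 rostral libraries (region 3), 8 of the 20 libraries in the series, and the 4 libraries of the lesion epicenter (region 4) were set beside them. All animals were wild-type female Long-Evans rats of about 6 to 8 months and 275 to 350 g. Each received a unilateral contusion at C4, with a displacement of 0.7 mm, and an electrode array in the opposite motor cortex 2 weeks later. In 2 animals (stimulated 1 and 2) the cortex was stimulated for 1 week, 5 hours a day at 10 Hz and 80% of the movement threshold, and 2 animals (control 1 and 2) were connected to the stimulator without current. Every animal had therefore been injured and implanted, and no uninjured cord entered the comparison. Position along the cord and the response to injury cannot be told apart by the difference between blocks alone. The rostral block was placed at about C2 to C4, and the caudal block at about C4 to C6 in the sample labels but C5 to C7 in the series description. Both blocks held gray and white matter, and Chat, Mbp and Gfap, which mark cholinergic neurons, oligodendrocytes and astrocytes of the cord, were present in all 8 libraries.

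Neurons along the spinal cord keep the positional code of Hox transcription factors that patterned them in the embryo. The Hox genes lie in clusters named a to d and are numbered by paralogue group, low numbers reaching into the hindbrain and high numbers being confined to more caudal cord. The lower cervical segments also hold the enlarged motor columns of the forelimb. After an injury, severed descending axons degenerate below it and severed ascending axons above it. Microglia and macrophages take up myelin debris, and astrocytes become reactive.

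Expression was given as FPKM, fragments scaled by the length of the transcript and by the mapped reads of the library, with low values raised to a floor of 0.1, so that a gene listed at 0.1 may be absent. Among 15210 genes with at least 1 FPKM in any library, 1667 (11.0%) were higher and 286 (1.88%) lower in the caudal block, by a paired limma fit on log2 FPKM with Benjamini-Hochberg adjusted p under the 0.05 threshold. A log2 difference of 1 is a doubling. The split depended on scaling. The median of all genes differed by 0.11 on the log2 scale between the blocks, and by 0.16, -0.05, 0.07 and 0.28 in control 1, control 2, stimulated 1 and stimulated 2. After quantile normalization that median was -0.02, and 2240 genes (14.7%) were higher and 2078 (13.7%) lower, with 1557 of the 1667 and 285 of the 286 still called. Upper-quartile scaling gave 2411 and 2033. In this fit most calls were lost when any 1 animal was left out. Without control 2 or without stimulated 2 no gene passed in either direction, without stimulated 1 there were 1 and 1, and without control 1 there were 489 and 65. A fit that added the lesion libraries gave 1704 and 268 without stimulated 2, but 31 and 4 without control 2. At an unadjusted p under 0.05 there were 5012 genes without control 2 and 3739 without stimulated 2, against 4966 with all animals. A fit of all 20 libraries called 616 and 311 of the 15210 genes, and a floor of 1 FPKM left 429 and 70. List counts under these settings are to be read against those numbers, and not against 11.0% and 1.88%. FPKM carries no read numbers, so the spread between 4 animals was the measure of error.

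Hox genes differed between the blocks according to their paralogue group. Of 39 Hox genes listed, 34 were in the table and 22 reached 1 FPKM in some library. Of the 22, 6 were higher and 8 lower in the caudal block, against 11.0% and 1.88% of all genes, and the median log2 difference over the 22 was -0.44 against 0.11 over all genes. The 6 that rose were Hoxc6, Hoxa7, Hoxc8, Hoxd8, Hoxb9 and Hoxc9, all of paralogue groups 6 to 9. The 8 that fell were Hoxa2, Hoxb3, Hoxd3, Hoxc4, Hoxd4, Hoxa5, Hoxb5 and Hoxb6, of groups 2 to 6. Quantile normalization gave 6 and 12, upper-quartile scaling 6 and 13 and a floor of 1 FPKM 6 and 0. In all 4 animals 13 of the 22 were lower caudally, as were 1300 of the 15210 genes tested.

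RefSeq held the promoter of 9 of the 22 genes (assembly GRCr8), of which 2 rose, 4 fell and 3 did not pass. The promoters of both genes that rose are shown, since they carry many more CpG pairs than those of the genes that fell, with 2 of the latter beside them. Each sequence is the 250 bases before the annotated start, read in the direction of the gene, with every CG pair in capitals.
Hoxa7: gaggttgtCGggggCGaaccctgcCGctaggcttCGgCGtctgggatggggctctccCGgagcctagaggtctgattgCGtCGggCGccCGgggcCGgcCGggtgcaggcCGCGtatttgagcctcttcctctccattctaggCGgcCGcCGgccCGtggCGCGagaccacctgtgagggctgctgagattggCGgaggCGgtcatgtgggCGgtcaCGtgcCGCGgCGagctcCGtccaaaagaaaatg
Hoxd8: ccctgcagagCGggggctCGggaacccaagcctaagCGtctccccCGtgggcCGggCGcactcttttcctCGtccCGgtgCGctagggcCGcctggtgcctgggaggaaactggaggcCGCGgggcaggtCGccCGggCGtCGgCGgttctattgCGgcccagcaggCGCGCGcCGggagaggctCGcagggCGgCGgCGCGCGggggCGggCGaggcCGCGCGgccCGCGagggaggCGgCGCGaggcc
Hoxa2: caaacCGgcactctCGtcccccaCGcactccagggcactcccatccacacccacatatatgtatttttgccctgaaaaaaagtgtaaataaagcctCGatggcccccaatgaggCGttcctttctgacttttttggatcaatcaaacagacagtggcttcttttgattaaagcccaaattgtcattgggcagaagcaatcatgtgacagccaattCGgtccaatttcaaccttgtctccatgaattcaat
Hoxd4: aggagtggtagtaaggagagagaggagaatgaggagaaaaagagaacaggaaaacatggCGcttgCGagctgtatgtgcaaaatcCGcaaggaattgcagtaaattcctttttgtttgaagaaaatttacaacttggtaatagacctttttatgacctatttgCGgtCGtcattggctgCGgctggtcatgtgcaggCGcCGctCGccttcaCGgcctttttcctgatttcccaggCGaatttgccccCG
Hoxa7 lies at chr4:82648242-82648491 and Hoxa2 at chr4:82595693-82595942, both on the minus strand, and Hoxd8 at chr3:80014973-80015222 and Hoxd4 at chr3:80021636-80021885, both on the plus strand. The Hoxa7 promoter held 28 CG pairs at 68.8% GC and that of Hoxd8 38 pairs at 78.8% GC. The Hoxa2 promoter held 6 pairs at 45.2% GC and that of Hoxd4 12 pairs at 47.2% GC. The other Hox genes that fell and had an entry, Hoxd3 and Hoxc4, held 11 and 3 pairs. CG was searched as the letters CG, which read the same on both strands, and 92.2% of all 33469 promoters of this length held at least 1, with a median of 5. At least 28 pairs were present in 6.79% of them and at least 38 in 1.69%. Hoxa3, Hoxd1 and Hoxa6, which did not pass, held 18, 25 and 28 pairs. Methylation was not measured, and the counts describe only these windows.

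Hoxc9 had the smallest adjusted p of all genes. It was listed at the floor in all 4 rostral libraries, and in the caudal block it was at 4.50, 2.88, 2.56 and 3.08 FPKM in control 1, control 2, stimulated 1 and stimulated 2 (adjusted p = 0.00463, limma). At the lesion it was at 0.350 in control 1, 0.114 in stimulated 1 and at the floor in the others. Hoxc9 transcript was thus listed above the floor in every caudal library and in no rostral library. Because the rostral level is the floor, no fold is given. The floored rostral values have no spread, so the spread behind the adjusted p is that of the caudal values alone. Within the cord, Hoxc9 reached the filter of 1 FPKM only in the caudal block.

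Hoxc8, which helps to specify the motor pools of the lower cervical cord, was at 0.650, 0.103, 0.1 and 0.1 FPKM rostrally in the same order of animals, at 8.13, 2.59, 5.59 and 2.00 at the lesion and at 20.3, 17.8, 19.0 and 16.4 caudally. The 3 blocks of each animal were ordered rostral, lesion, caudal without exception, and the caudal values were close together while the lesion values were spread more widely. The log2 difference between caudal and rostral was 6.83 ± 0.48 (SE, n = 4, adjusted p = 0.0212, limma), a size that depends on the floor. Hoxb9 rose from 0.719, 0.328, 0.1 and 0.433 to 3.99, 4.52, 4.26 and 3.52 (3.67 ± 0.49, adjusted p = 0.0216).

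**Figure D1:**
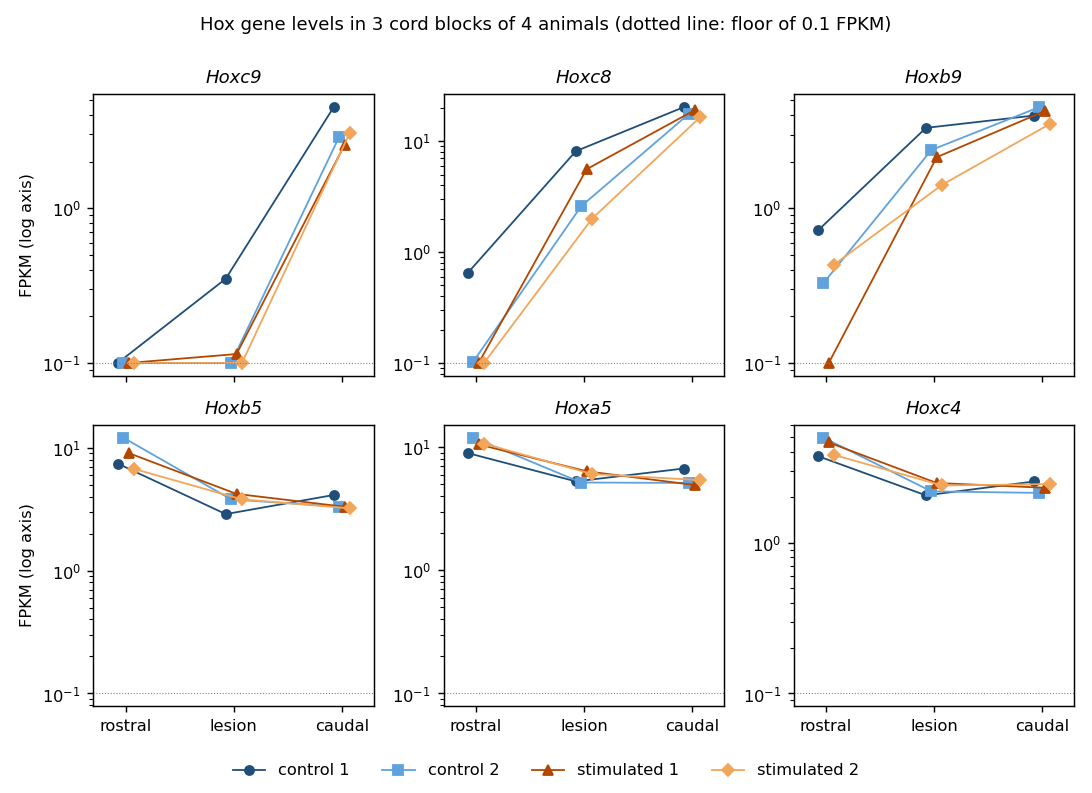
FPKM of 6 Hox genes on log axes in the rostral, lesion and caudal blocks, with 1 line per animal and a dotted line at the floor of 0.1. Hoxc8 reached 16.4 to 20.3 caudally in all 4 animals, whereas Hoxb5 fell to 3.21 to 4.12 from 6.71 to 12.1.

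The other rising genes were expressed on both sides. Hoxa7 went from 3.19, 1.41, 2.15 and 2.31 FPKM to 8.52, 7.39, 6.83 and 8.91 (log2 difference 1.86 ± 0.17, adjusted p = 0.0212), Hoxd8 by 1.30 ± 0.13 (adjusted p = 0.0215) and Hoxc6 by 1.14 ± 0.11 (adjusted p = 0.0214). None of the 6 had overlapping rostral and caudal values. Of all 15210 genes tested, 3116 lay wholly higher in the caudal block, and the 6 had already been picked by a fit to the same values.

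Hoxb5, a group 5 gene of the upper cervical cord, fell from 7.41, 12.1, 9.04 and 6.71 FPKM to 4.12, 3.31, 3.30 and 3.21, a log2 difference of -1.31 ± 0.18 (adjusted p = 0.0221). Hoxa5, which is required for the phrenic motor neurons that drive the diaphragm, fell from 8.97, 12.0, 10.5 and 10.7 to 6.72, 5.13, 4.93 and 5.41 (-0.93 ± 0.15, adjusted p = 0.0254). Hoxd3 and Hoxc4 fell by 0.90 and 0.85 on the log2 scale, and Hoxb3, Hoxa2, Hoxb6 and Hoxd4 lay between -0.69 and -0.46. None of the 8 overlapped between the blocks. Of all 15210 genes tested, 763 lay wholly lower in the caudal block, and the 8 had likewise been picked by the fit. For most of the 8 the lesion was close to the caudal level: Hoxb5 was at 2.88, 3.79, 4.20 and 3.79 there and Hoxa5 at 5.28, 5.17, 6.38 and 6.06. Against the rostral block, 5 Hox genes were higher and 10 lower at the lesion, where 15.5% and 14.2% of all genes were called. The lesion and caudal comparisons share the rostral libraries, so they are not independent.

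The other 8 Hox genes did not pass. Hoxa6 and Hoxb7 had log2 differences of 0.03 and -0.02, and Hoxb7 was among the most abundant of the cluster genes, at 9.56 to 13.1 FPKM rostrally and 11.4 to 12.6 caudally. Hoxb4 was at 2.20, 3.17, 2.48 and 2.80 rostrally and 1.79, 1.49, 1.77 and 1.37 caudally without overlap (-0.73 ± 0.17, adjusted p = 0.0534). Hoxc5 differed by -0.49 (adjusted p = 0.0511, limma) and Hoxb2 by -0.36 (adjusted p = 0.162). Hoxb8 differed by -0.42, unlike its paralogues Hoxc8 and Hoxd8, and group 6 held a gene that rose (Hoxc6), one that fell (Hoxb6) and one that did not pass (Hoxa6). The 9 listed Hox cofactors (Pbx, Meis and Pknox genes) had no call in either direction and a median of -0.07. Meis2 was lowest among them at -0.66 (adjusted p = 0.0548), and quantile normalization called 3 of the 9 lower.

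**Figure D2:**
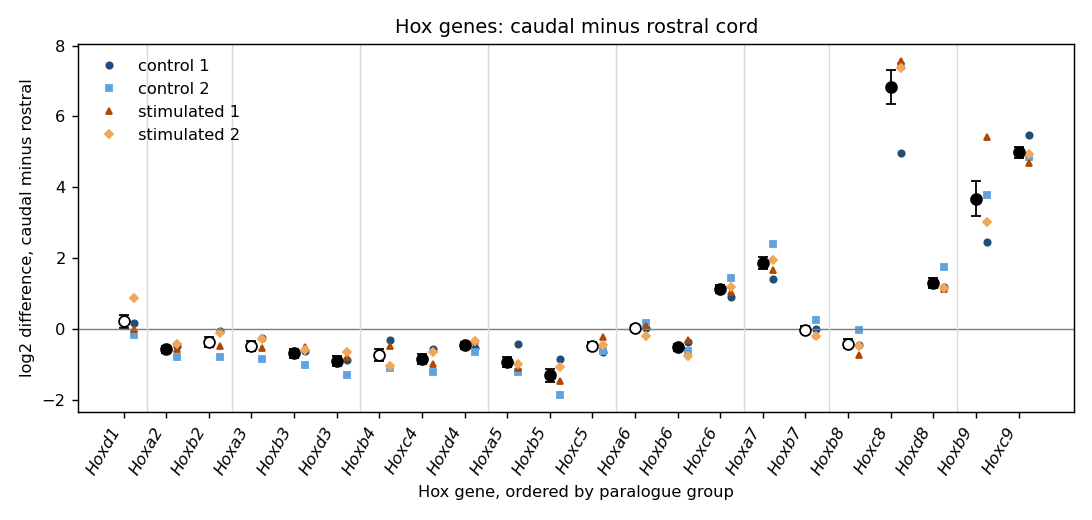
Log2 difference between caudal and rostral cord for the 22 Hox genes, ordered by paralogue group. Large circles with bars are the mean and standard error, filled where the adjusted p passed the threshold, and small symbols are the 4 animals. Groups 1 to 5 lie near or under 0, and all filled points above 0 belong to groups 6 to 9.

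Motor neuron genes were higher in the caudal block. Of 18 motor neuron and cholinergic genes tested, 10 rose and none fell, against 11.0% and 1.88% of all genes, with a median log2 difference of 0.50 (0.64 and 0.56 in the controls, 0.47 and 0.82 in the stimulated animals). Chat, which makes acetylcholine, was at 6.39, 6.65, 5.09 and 4.86 FPKM rostrally and 12.7, 10.7, 11.8 and 11.2 caudally, a log2 difference of 1.02 ± 0.11 (adjusted p = 0.0216). Slc5a7, the choline transporter of the same terminals, rose from 13.7, 12.9, 12.4 and 11.2 to 25.4, 24.6, 26.0 and 24.4 (1.00 ± 0.06, adjusted p = 0.0212). For both genes every caudal value was above every rostral value. Aldh1a2, the retinoic acid synthesizing enzyme of limb motor columns and of the meninges, rose by 1.42 ± 0.16, and Prph, the intermediate filament peripherin, by 1.52 ± 0.14 (adjusted p = 0.0216 and 0.0212). Chodl, a marker of fast motor neurons, rose from 23.8, 13.1, 19.8 and 20.6 to 45.8, 39.5, 43.4 and 41.1. In bulk tissue, more cells of a type and more RNA per cell cannot be told apart.

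Isl2, a transcription factor of motor and of sensory ganglion neurons, had the largest difference of the list (1.89 ± 0.35, adjusted p = 0.0314), but its caudal level was 0.820 and 0.866 in the controls and 2.05 and 1.98 in the stimulated animals. Calca, which encodes CGRP, rose by 1.41 ± 0.19 and is likewise made by both kinds of neuron, as are Prph and Ret. Markers of sensory ganglion neurons were highest in the caudal block of the stimulated animals, with list sums of 35.0 and 50.3 FPKM against 16.8 and 17.3 in the caudal controls, and their part in these 4 genes was not tested. The caudal values of Chat and Slc5a7 overlapped between the arms.

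The dorsal horn peptides moved the other way. Of 17 tested, 7 fell and 1 rose, against 1.88% and 11.0% of all genes, with a median of -0.65. In all 4 animals 11 were lower, as were 1300 of the 15210 genes tested. With a floor of 1 FPKM, 2 of the 17 fell and none rose. Nts, the peptide neurotensin, fell from 7.77, 10.9, 9.28 and 9.57 FPKM to 4.16, 4.69, 3.55 and 4.16 (-1.18 ± 0.10, adjusted p = 0.0212). Penk, the enkephalin precursor, went from 59.5, 78.8, 64.3 and 68.8 to 44.5, 37.1, 32.3 and 41.8 (-0.81 ± 0.12, adjusted p = 0.0248), and Grp, Nmu, Tac1, Sst and Npff also fell. For Nts and Penk, every caudal value was under every rostral value. Vip rose by 0.78 ± 0.11 at 0.355 to 0.963 FPKM, with overlapping blocks. At the lesion 12 of the 17 were lower than rostrally and none higher, against 14.2% and 15.5% of all genes.

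Among 33 neurotransmitter and synapse genes, 4 rose and 7 fell, so that the share that rose was close to the 11.0% of all genes and the share that fell above the 1.88%. After quantile normalization 4 rose and 23 fell, against 14.7% and 13.7% of all genes. With the deposited scaling the 4 were 3 genes of the axonal cytoskeleton, Nefm, Nefh and Tubb3, and the GABA receptor gene Gabra2. Nefh, the heavy neurofilament chain of large axons, was at 179, 179, 172 and 177 FPKM rostrally, 190, 164, 192 and 162 at the lesion and 304, 284, 294 and 293 caudally (0.74 ± 0.09, adjusted p = 0.0216). Only the caudal block stood apart for this gene. Those that fell included Glra3 (-0.96 ± 0.08, adjusted p = 0.0212), Gad2 (-0.73 ± 0.12, adjusted p = 0.0262), Gria2, Slc17a6, Grin2a and Grin2b, which encode transmitter receptors, a GABA synthesizing enzyme and the vesicular glutamate transporter of spinal neurons. The summed FPKM of the list, in which neurofilaments weigh heavily, was 2385 to 2868 rostrally and 2720 to 2947 caudally. The sum was higher caudally in every animal but control 2, where it went from 2868 to 2720, whereas the median over the list was -0.26 and lay under 0 in each animal. Of 17 transcription factors of spinal interneurons, 3 fell (Lmx1b, Pax2 and Pax8) and 3 rose, Maf and Tal1 among them, against 1.88% and 11.0% of all genes. The even split depended on scaling, since quantile normalization and upper-quartile scaling each gave 7 lower and 2 higher. Lmx1b and Pax2 mark dorsal horn neurons and fell by 0.93 and 0.71 on the log2 scale (adjusted p = 0.0477 and 0.0277). Maf is also made by macrophages and microglia, and it was at 6.53 to 13.3 FPKM at the lesion against 5.28 to 5.83 rostrally.

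Genes of phagocytes and activated microglia were higher below the injury than above it. Of 29 tested, 22 rose and none fell, against 11.0% and 1.88% of all genes, with a median of 0.93 (0.74, 0.83, 0.71 and 1.47 in control 1, control 2, stimulated 1 and stimulated 2). In all 4 animals 24 were higher, as were 4852 of the 15210 genes tested. With a floor of 1 FPKM 6 of the 29 rose, where 429 of the 15210 genes did. In the fit of all 20 libraries 2 rose, where 616 of all genes did. Gpnmb, a glycoprotein of lipid-laden phagocytes, was at 31.0, 17.4, 31.9 and 18.3 FPKM rostrally and 78.7, 80.5, 78.0 and 122 caudally (1.89 ± 0.27, adjusted p = 0.0225), and at the lesion at 434, 322, 293 and 120. Cd68, a lysosomal protein of macrophages, went from 2.75, 1.61, 3.31 and 2.07 to 5.75, 5.84, 7.11 and 11.6 (1.63 ± 0.27, adjusted p = 0.0266), with 45.2, 32.6, 31.9 and 13.1 at the lesion. In both genes the blocks did not overlap, and stimulated 2 had both the highest caudal and the lowest lesion value. Lgals3, which encodes galectin-3, was at 166 to 190 caudally, at 123 to 271 at the lesion and at 42.5 to 74.7 rostrally. All 29 were higher at the lesion than rostrally, against 15.5% of all genes, with a median of 1.69. Mmp12, a macrophage elastase, was at 7.78, 3.37, 1.54 and 1.12 at the lesion, whereas it was at the floor in every rostral library and in every caudal one but stimulated 2 (0.584).

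Microglial genes of the resting state rose as well. Of 12 tested, 11 rose and none fell, against 11.0% and 1.88% of all genes, with a median of 0.73. All 12 were higher in every animal, as were 4852 of the 15210 genes tested. The fit of all 20 libraries called 3 of the 12. P2ry12, a purine receptor that resting microglia express and activated ones lose, rose by 0.75 ± 0.12 (adjusted p = 0.0249), with 25.4 to 32.9 FPKM caudally and 19.3 to 32.5 at the lesion. Csf1r, the receptor on which microglia depend, was at 41.2, 26.6, 36.0 and 28.3 rostrally, 97.4, 65.4, 93.0 and 54.5 at the lesion and 63.9, 53.6, 57.3 and 62.3 caudally (0.86 ± 0.11, adjusted p = 0.0216). Its rostral and caudal values did not overlap. Complement genes gave 14 of 18 higher and none lower, against the same shares of all genes, or 2 higher in the fit of all 20 libraries. C1qb was at 40.0, 23.7, 40.6 and 30.7 rostrally and 69.3, 51.7, 66.6 and 81.6 caudally (1.01 ± 0.13, adjusted p = 0.0216), and Itgb2, a chain of a complement receptor, rose by 1.11 ± 0.15.

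Of 16 genes of antigen presentation, 8 rose and none fell, against 11.0% and 1.88% of all genes. None passed in the fit of all 20 libraries. In all 4 animals 15 were higher caudally, as were 4852 of the 15210 genes tested. RT1-Da, a class II chain, was at 7.45, 3.58, 12.9 and 8.41 FPKM rostrally, 11.0, 7.32, 17.5 and 10.8 at the lesion and 16.0, 12.1, 22.3 and 21.1 caudally (caudal minus rostral 1.24 ± 0.16, adjusted p = 0.0216). Cd74, the class II invariant chain, followed at 33.6, 15.8, 48.6 and 34.1, then 48.1, 27.5, 76.0 and 42.5, then 71.4, 39.8, 88.6 and 75.3. The animals differed so much that rostral and caudal values overlapped, but within each animal the order was rostral, lesion, caudal for both genes. The difference between caudal cord and lesion did not pass (adjusted p = 0.145 for RT1-Da and for Cd74), and no gene passed in that comparison, where 3878 had an unadjusted p under 0.05 by limma. Fitted without pairing, 874 genes were higher and 92 lower caudally than at the lesion.

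Interferon-induced genes were higher for 14 of 21 and lower for none, against 11.0% and 1.88% of all genes. The same shares apply to the other lists of this paragraph. The 14 became 3 without control 1 and 0 in the fit of all 20 libraries. Mx1 went from 2.17, 0.666, 1.22 and 0.998 FPKM to 4.76, 1.78, 1.73 and 2.90 (1.15 ± 0.19, adjusted p = 0.0278) and Ifitm3 from 8.90 to 15.6 rostrally to 21.4 to 33.4 caudally. Of 20 chemokine and cytokine genes, 11 rose (2 in the fit of all 20 libraries), led by Ccl4 (1.76 ± 0.39, adjusted p = 0.0460), Ccl3 and Ccl7, all under 3 FPKM caudally. Proliferation genes rose for 7 of 11, or for none in the fit of all 20 libraries, with Top2a at 0.482 to 0.657 rostrally and 1.10 to 2.03 caudally. Among 10 lymphocyte genes, Cd8b, Ptprc and Cd4 rose and Igj fell. Cd4 and Ptprc are also made by rat macrophages and microglia, and Cd3e, a chain of the T-cell receptor complex, was at the floor in all 12 cord libraries.

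Reactive astrocyte genes had a median of 1.09, with 16 of 20 higher and none lower, against 11.0% and 1.88% of all genes, and with 3 of 20 higher in the fit of all 20 libraries. Tnc, an extracellular matrix protein of the scar, was at 0.714, 0.746, 0.409 and 0.519 FPKM rostrally and 1.99, 2.16, 1.60 and 2.05 caudally (1.74 ± 0.13, adjusted p = 0.0212). Vim, the filament vimentin, went from 101, 66.1, 84.9 and 70.6 to 205, 157, 182 and 227. Both stood at about the same level at the lesion, 1.20 to 2.13 for Tnc and 127 to 216 for Vim, and the list had a median of 1.10 there. Gfap had a log2 difference of 0.90 ± 0.27 (adjusted p = 0.0855), with 823 to 1225 rostrally and 1754 to 2051 caudally without overlap. Of 15 genes of resting astrocytes none passed in either direction, at a median of 0.02. That count depended on scaling, with 6 lower after quantile normalization and 4 lower and 1 higher after upper-quartile scaling. Aldoc, the most abundant, was at 719 to 815 rostrally and 751 to 852 caudally.

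**Figure D3:**
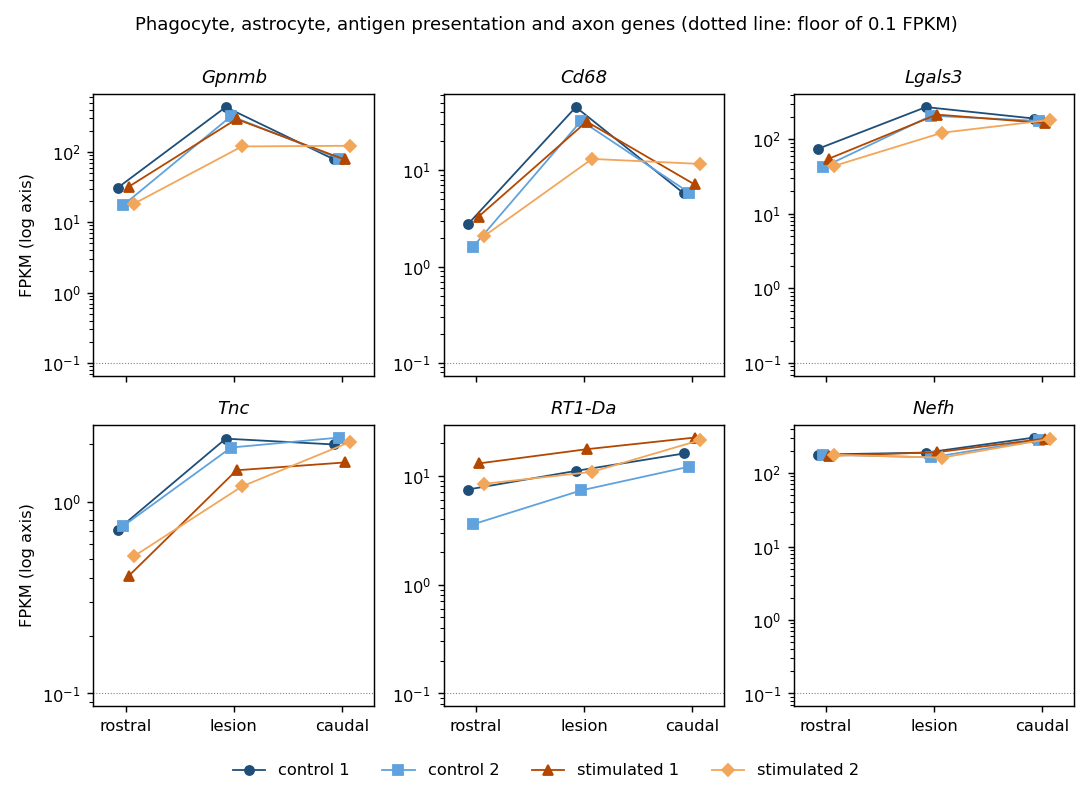
FPKM of Gpnmb, Cd68, Lgals3, Tnc, RT1-Da and Nefh on log axes in the 3 blocks, with 1 line per animal and a dotted line at the floor of 0.1. Cd68 peaked at the lesion (13.1 to 45.2) in every animal, RT1-Da was highest caudally in every animal (12.1 to 22.3), and Nefh was raised in the caudal block alone (284 to 304).

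Of 16 axon injury and regeneration genes, 4 rose and 2 fell, against 11.0% and 1.88% of all genes. Quantile normalization gave 5 and 5 and upper-quartile scaling 6 and 4. Atf3, a transcription factor induced by axon damage, went from 1.29, 0.811, 1.01 and 0.888 FPKM to 2.52, 2.17, 2.16 and 2.74 (1.28 ± 0.14, adjusted p = 0.0216), with 7.57, 5.56, 5.61 and 2.82 at the lesion. Hspb1, a small heat shock protein, rose to 205 to 229 from 66.5 to 118, and Bdnf, a neurotrophin, fell by 0.83 on the log2 scale (adjusted p = 0.0392). Gap43, a protein of growing axons, differed by -0.11 ± 0.12. Of 11 immediate early genes, Egr2, Junb and Fos rose and Egr3 fell, against 11.0% and 1.88% of all genes. Egr2 is also the regulator of Schwann cell myelination, and Egr3 was at 0.551 to 0.647 rostrally and 0.260 to 0.388 caudally.

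Central myelin genes, which make up the white matter of both blocks, had no call among 16 (median 0.22), with Mbp at 3836 to 4806 FPKM rostrally and 4608 to 5813 caudally. Cholesterol synthesis genes had no call among 20 (median 0.05), although 16 of the 20 were lower at the lesion, against 14.2% of all genes. Hmgcs1, an enzyme of that pathway, was at 93.6 to 118 rostrally, 61.7 to 80.5 at the lesion and 79.2 to 130 caudally. In the oligodendrocyte progenitor list 2 of 11 rose (Enpp6 and Cspg4, both 0.50), and in the endothelial and pericyte list 2 of 15 (Vtn and Pdgfrb), shares not far from the 11.0% of all genes. Rarres2 rose and Dnah9 fell among 12 ependymal genes, against 11.0% and 1.88% of all genes, and none of 5 blood genes passed. A filter of 1 FPKM in 4 of the 8 libraries left 3 blood genes, all 3 called lower, where 832 of 13387 genes were. The median of the 5 was 0.25, -1.82, -0.66 and -0.32 in control 1, control 2, stimulated 1 and stimulated 2.

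**Figure D4:**
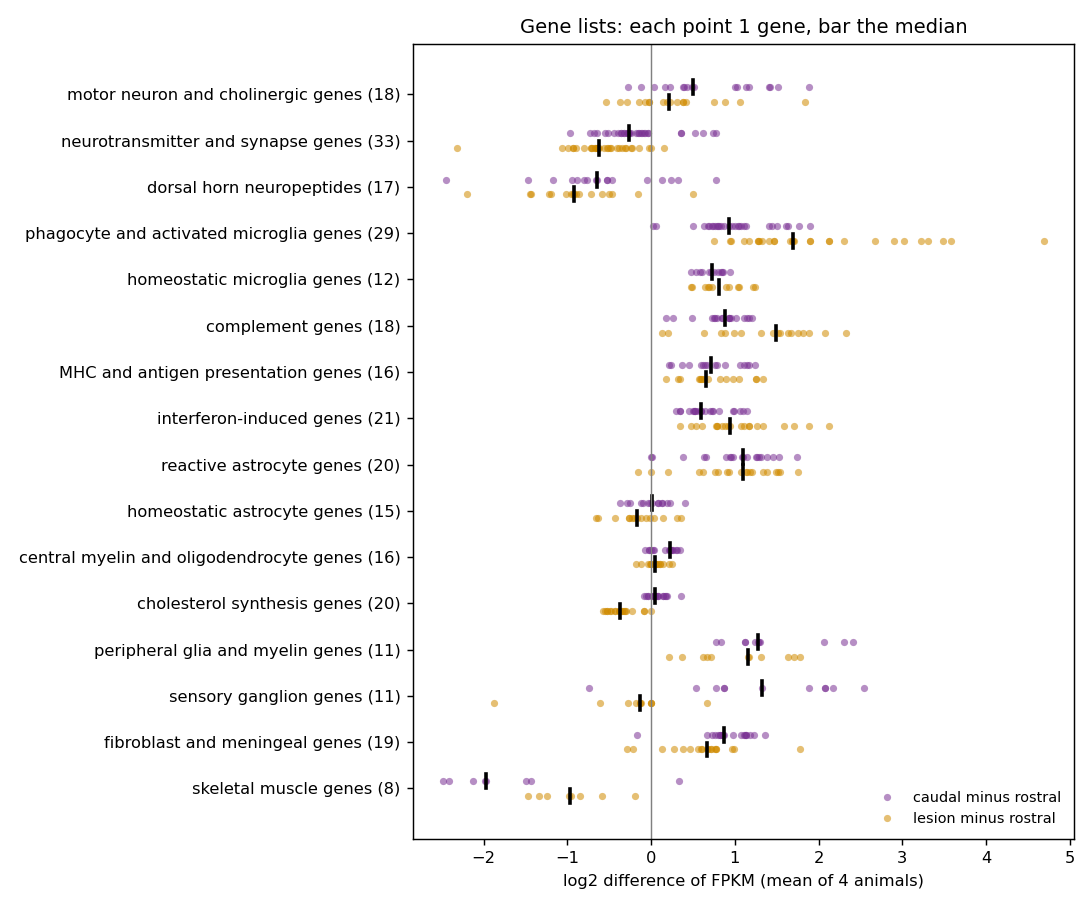
Log2 differences of the members of 16 gene lists (number tested in brackets), caudal minus rostral in purple and lesion minus rostral in orange, with each point 1 gene and black bars the medians. Phagocyte genes had medians of 0.93 caudally and 1.69 at the lesion, reactive astrocyte genes 1.09 and 1.10, and cholesterol synthesis genes 0.05 and -0.37. The orange and purple points share the rostral libraries.

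Several markers of tissue at the border of the cord also differed between the blocks. Of 11 genes of peripheral glia and myelin, which the spinal roots hold, 8 rose and none fell, against 11.0% and 1.88% of all genes. All 11 were higher caudally in every animal, as were 4852 of the 15210 genes tested. Ncmap, a membrane protein of peripheral myelin, was at 1.03, 0.524, 1.22 and 2.24 FPKM rostrally and 3.67, 3.01, 9.20 and 8.73 caudally (2.31 ± 0.21, adjusted p = 0.0212), with 3.39 to 4.23 at the lesion. The summed FPKM of the list was 65.5 to 130 rostrally, 181 to 218 in the caudal controls and 407 to 413 in the caudal stimulated libraries. Sfrp5, Myoc, Mrap, Smoc2 and Lect1, which are in no list, were among the 12 largest differences and were higher caudally in the stimulated than in the control animals. Ms4a6c, a gene of macrophages, and Defb1, a defensin, were also among the 12. Sfrp5 was at 0.499 to 1.77 rostrally and at 4.19, 3.32, 10.9 and 9.95 caudally (2.71 ± 0.25, adjusted p = 0.0212).

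Fibroblast and meningeal genes rose for 9 of 19, against 11.0% of all genes. In all 4 animals 18 were higher, as were 4852 of the 15210 genes tested. The 9 became 3 in the fit of all 20 libraries and 0 with a floor of 1 FPKM. Dcn, the matrix protein decorin, went from 14.6, 9.86, 14.4 and 18.1 FPKM to 21.4, 25.1, 48.7 and 62.2 (1.36 ± 0.22, adjusted p = 0.0268). The list sum was 139 to 167 rostrally, 205 to 226 in the caudal controls and 307 to 430 in the caudal stimulated libraries. Macrophages also reside in roots and meninges, and the part of these tissues in the immune and matrix genes was not tested.

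Sensory ganglion genes gave 1 call among 11, Calcb, at 4.37 to 5.77 FPKM rostrally and 11.4 to 13.3 caudally (1.32 ± 0.12, adjusted p = 0.0212). In the 2 stimulated animals alone 9 of the 11 were called higher, with a median of 2.01, where 338 of all 15210 genes were. Within the cord, some members passed the filter only through the caudal libraries of these animals, so that count cannot serve as a test. With all animals, a filter of 1 FPKM in 4 of the 8 libraries left 4 members, 3 called higher and 1 lower. Of all 13387 genes under that filter, 2718 were higher and 832 lower. In the 2 controls alone no gene of any kind passed, so a missing call there says nothing about this list. The medians of the list were 0.00 in control 1 and -0.15 in control 2. Others of this list, named here after their values were seen, were raised only in the caudal libraries of stimulated animals. Scn10a and Scn11a, sodium channels of pain fibers, and Tmem233 were at the floor in all 12 cord libraries except these 2, where they were at 1.32 and 2.39, 1.41 and 2.92, and 2.42 and 4.77. Within the cord they reached the filter of 1 FPKM only through these 2 libraries. Avil, which marks sensory ganglion neurons, was at 4.03 and 7.92 in them and at 0.212 to 0.402 in the other 10. The list sum was 9.64 to 14.4 rostrally, 16.8 and 17.3 in the caudal controls and 35.0 and 50.3 in the stimulated ones. Whether these libraries held ganglion tissue, or the cord itself differed, was not tested, and with 2 animals per arm the dissection and the stimulation cannot be told apart.

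Rostral libraries held other traces. The medulla and brainstem list had 5 of 11 genes over the filter, of which Th, Dbh and Mab21l2 were lower caudally, against 1.88% of all genes. With a floor of 1 FPKM 1 of the 5 was lower, where 70 of the 15210 genes were. A filter of 1 FPKM in 4 of the 8 libraries left 2 genes of this list, 1 of them lower, where 832 of 13387 genes were. Dbh, which makes noradrenaline, was at 0.355, 2.47, 0.755 and 0.320 FPKM rostrally and at the floor in all lesion and caudal libraries (adjusted p = 0.0327). Prlh, a peptide of medullary neurons, was at 1.02, 2.71, 2.10 and 0.677 rostrally and at the floor in every caudal library (adjusted p = 0.0212). Within the cord, Th, Dbh and Prlh reached the filter of 1 FPKM only in rostral libraries, where they were high. Control 2 was highest for Th, Dbh, Prlh and also for Tph2 (3.26, against 0.183 to 0.725 in the other rostral libraries). Control 2 was likewise the highest rostral library for every Hox gene called lower caudally, and for Nts and Penk. Among the Hox genes that rose, it was the lowest rostral library for Hoxa7, Hoxc6 and Hoxd8, but not for Hoxc8 or Hoxb9. Without this animal the log2 differences of Hoxb5 and Hoxa5 were -1.12 and -0.83. Skeletal muscle genes fell for 4 of 8 (none with a floor of 1 FPKM), against 1.88% of all genes. Ckm, the muscle creatine kinase, was at 0.421, 0.478, 1.33 and 3.20 rostrally and 0.204, 0.173, 0.1 and 0.302 caudally (-2.41 ± 0.52, adjusted p = 0.0436). The summed FPKM of the muscle list went from 12.4 to 13.6 in control 1 and from 14.1 to 12.7 in control 2. It went from 23.1 to 11.5 in stimulated 1 and from 33.8, the highest rostral sum, to 13.8 in stimulated 2. A filter of 1 FPKM in 4 of the 8 libraries left 2 muscle genes, 1 called higher and 1 lower. The part of brainstem tissue and muscle in other lower genes was not tested. The 12 genes with the most negative differences also included Ppp1r17 and 4 entries without a gene name, of which AC105485.2 was the lowest (-1.52 ± 0.34, adjusted p = 0.0487).

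**Figure D5:**
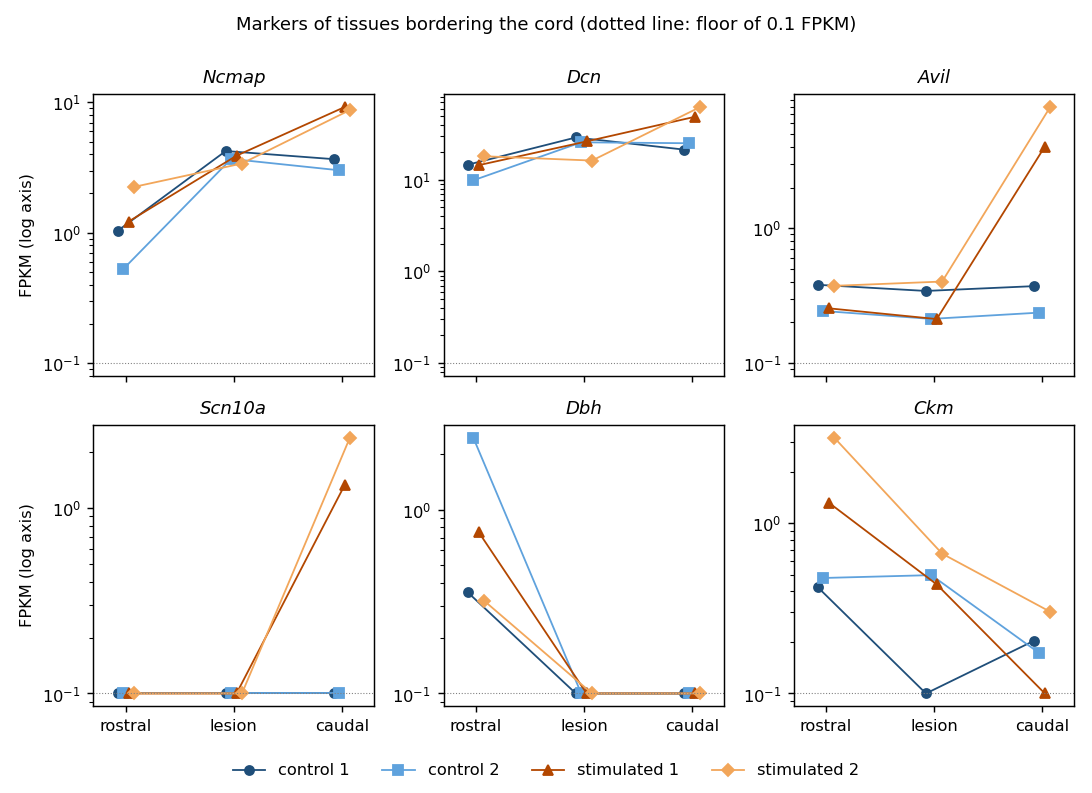
FPKM of Ncmap (peripheral myelin), Dcn (fibroblasts), Avil and Scn10a (sensory ganglia), Dbh (brainstem) and Ckm (muscle) on log axes in the 3 blocks, with 1 line per animal and a dotted line at the floor of 0.1. Avil and Scn10a left their low level only in the caudal block of stimulated animals, and Dbh was above the floor in the rostral block alone.

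The difference between caudal and rostral cord was then compared between stimulated and control animals. By limma on the 4 within-animal differences, the call was made for 2 of 15210 genes (0.0131%), while 356 reached an unadjusted p under 0.05. No gene passed this comparison after quantile normalization or without a trend. Tyrp1, a melanocyte enzyme, was at 2.90 and 2.74 FPKM in the caudal libraries of stimulated animals and at 0.1 to 0.134 in the 10 other cord libraries (difference of differences 5.03, adjusted p = 0.0430). Within the cord Tyrp1 reached the filter of 1 FPKM only in those 2 caudal libraries, so the size of its difference depends on the floor. AABR07058420.1, which the table gives no other name, had a difference of differences of -3.98 (adjusted p = 0.0430) at 0.1 to 1.04 FPKM. Avil had a difference of differences of 4.23 ± 0.23 and missed the threshold (adjusted p = 0.0774). Of the Hox genes none passed, and Hoxc9 and Hoxc8 were raised caudally in both arms.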

How the data were processed

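Ribosome-depleted total RNA from dissected, snap-frozen blocks was sequenced as paired reads. The authors used Rnor6 as the genome, aligned with TopHat2 2.1.0, estimated expression with Cufflinks 2.2.1 and summarized quality with MultiQC 1.6, as their processing notes and methods name them. The authors deposited FPKM values per gene, with values under 0.1 already raised to 0.1 and without quantile normalization. The version of the annotation and the strand used in counting are not given in the sources used here, so overlapping and antisense genes are uncertain. FPKM is scaled by mapped reads and not to a fixed sum, and the summed FPKM of a library was 231086 to 246218 rostrally and 250509 to 288486 caudally, higher caudally in each animal. FPKM carries no read numbers. Every column was mapped to a sample by its title (0 columns without a sample).

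FPKM values were log2-transformed, and 15210 of 30443 genes with at least 1 FPKM in any of the 20 libraries were tested (13925 protein coding, 1285 long non-coding). limma 3.58.1 in R 4.3.3 (lmFit, eBayes with trend) was fitted to the 8 libraries of each pair of regions with the animal as a block, two-sided, with Benjamini-Hochberg adjustment across the genes tested. Libraries of an animal share its tissue, and the number 1 or 2 in the titles of controls and stimulated animals names different animals. Deviations from the region means correlated at 0.150, 0.180, 0.0224 and 0.147 between the blocks of an animal. For stimulation, limma was fitted to the 4 within-animal differences. The fits were checked on simulated data. Figures were drawn with Python 3.11.15, numpy 2.4.6 and matplotlib 3.10.9.

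The comparison and the 29 gene lists were chosen with earlier results of these data known, so they are not independent of them. The text names every Hox gene tested, the 12 largest differences in each direction (past the threshold, of 1 sign in all 4 animals, with a block mean of 1 FPKM or more), up to 4 called members of each other list by size, or the 2 most abundant where none was called, and genes past the threshold for stimulation. Other list members are named as examples after their values were seen, and a few genes that the rule names are not reported here. Alternatives were no block, other sets of libraries, another pseudocount, floor, filter or scaling, eBayes without a trend, and leaving out each animal. Promoters came from RefSeq for GRCr8, a later build than Rnor6. The table was taken to read in the direction of the gene, since among 16624 promoters on the minus strand TATAAA lay shortly before the start in 224 as read and in 106 on the reverse.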

Additional observations from a re-analysis of the deposited data

Results flagged for a closer look

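For the genes named, the 4 libraries of a block were searched for a value far from the others of its group. Of 253 groups searched, 12 held one, and chance gives about 1 in 20. In the caudal block, Gpnmb was at 122 FPKM in stimulated 2 against 78.0 to 80.5 in the others, Junb at 10.3 in stimulated 2, Cxcl10 at 3.53 in control 1, Hoxb5 at 4.12 in control 1 and Hoxa3 at 0.905 in control 1. In the rostral block, Hoxc8 was at 0.650 in control 1 against 0.1 to 0.103, Hoxd3 at 2.38 in control 2 against 1.36 to 1.44, Hoxb7 at 9.56 in control 2 against 12.6 to 13.1, Ccl3 at 0.289 in control 2, Ccl7 at 0.141 in stimulated 2, Cd8b at 0.137 in control 1 and Tyrp1 at 0.134 in control 2. The last 3 lay close to the floor.

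Stimulated and control animals differed in the step from rostral to caudal cord for Tyrp1 (5.03 on the log2 scale, limma adjusted p = 0.0430) and AABR07058420.1 (-3.98, adjusted p = 0.0430). The size for Tyrp1 depends on the floor. For Hoxb7 both stimulated animals were lower caudally, control 2 went from 9.56 to 11.5 FPKM and control 1 was at 12.6 in both blocks, a difference between the arms of -0.32 that did not pass the adjustment over all genes (unadjusted p = 0.114, limma).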

How the results depend on the processing

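Each result was recomputed with 1 choice changed at a time. The number of genes higher and lower in caudal than rostral cord was 1667 and 286. It was 2692 and 631 with no replicate block, 2066 and 486 in a fit of the 12 cord libraries, 616 and 311 in a fit of all 20 libraries, 429 and 70 with a floor of 1 FPKM, 2718 and 832 with a filter of 1 FPKM in 4 of the 8 libraries, 2240 and 2078 after quantile normalization and 2411 and 2033 after upper-quartile scaling. Leaving out each animal gave 0 to 489 higher and 0 to 65 lower, and the 2 control animals alone gave 0 and 0, with 2337 genes at an unadjusted p under 0.05 by limma. The 2 stimulated animals alone gave 338 and 45. With fewer animals the fit has fewer degrees of freedom. Other alternatives were added after seeing the data. The 12 cord libraries after quantile normalization gave 2180 and 1923, and the 12 cord libraries without control 1, control 2, stimulated 1 or stimulated 2 gave 435, 31, 141 and 1704 higher and 120, 4, 16 and 268 lower.

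Between lesion and rostral cord 4512 genes passed, and 2027 to 3388 when each animal was left out. Between caudal cord and lesion the count was 0, but 966 with no replicate block, 184 after upper-quartile scaling, 1 with log2(FPKM + 1) and 0 to 1 without each animal. The difference between stimulated and control animals passed for 2 genes, and for 297 with the shared replicate number as a replicate block, a pairing of different animals that leaves 1 degree of freedom. It passed for 0 without a trend, 0 after quantile normalization, 1 with log2(FPKM + 1), 6 in the 12 cord libraries and 16 to 23 without each animal. In the 2 stimulated animals alone, AABR07058420.1 was lower caudally by 1.96 on the log2 scale (-1.96, adjusted p = 0.00505, limma), where all animals gave 0.03. No other named gene changed its sign among called values. Of 2660 values of the 128 named genes under alternatives, 1656 kept their side of the threshold and 919 fell short of it. The cause of these changes was not tested. The 4 animals and the lack of read numbers limit what a missing call can show.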
